A study of Mus musculus with 28 samples.

Results

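The genes described here are 8 genes known for their expression in thalamic neurons, namely Tcf7l2, Lef1, Gbx2, Prkcd, Plekhg1, Ramp3, Synpo2 and Rgs16. They were taken from a list of symbols that was drawn up with earlier results of these data known, so counts over them are a description. They were followed along the body axes of the brain. Probes were assigned to the genes through the RefSeq accession in the array file, and all 8 genes were found, with 13 probes among the 55681 on the array and among 20660 named genes. For each gene the probe with the highest mean level was used. The method, Transcriptome Tomography, cuts a frozen brain into sections along 1 body axis and combines runs of neighbouring sections, called fractions, for RNA extraction. The samples came from 3 male C57BL/6J mice aged 3 weeks, for which the labels name no treatment or genetic change, with 12 coronal fractions from mouse 1, 6 horizontal fractions from mouse 2 and 10 sagittal fractions from mouse 3. According to the labels, 100 sections of 5 micron went into each fraction, and the last coronal fraction also took in a following one. The study's methods give another fraction width for this age, so no distances are given. Each fraction was hybridised to 1 array, so no position was replicated, and the mouse and the plane of cutting cannot be told apart.

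A level here is the log2 processed signal of a probe after subtraction of its array's 75th percentile, so 0 marks a probe brighter than 75 percent of the probes on that array. Levels of different probes are not comparable with each other, so only fractions are compared, for the same probe or the same list. In bulk tissue, fewer cells of a type and less RNA per cell cannot be told apart. Over probes spotted several times, the median SD between repeated spots on 1 array was 0.056 to 0.085 log2, which is the only technical error these arrays show. All 8 main probes passed the filter on dim probes, which kept the 32364 probes detected (well above background) at 1 or more positions along every axis. The probes of Tcf7l2, Lef1, Prkcd, Ramp3 and Rgs16 were well above background in all 28 fractions, that of Synpo2 in 26, that of Gbx2 in 19 and that of Plekhg1 in 14.

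The thalamus is the large paired nucleus group of the forebrain that relays sensory and motor signals to the cerebral cortex. Its projection neurons are glutamatergic, and they are set apart from their neighbours during development by a small group of transcription factors. Tcf7l2 and Lef1 are HMG-box factors that join β-catenin on the targets of canonical Wnt signalling, and Tcf7l2 stays on in postmitotic thalamic and habenular neurons. Gbx2 is a homeodomain factor of the developing thalamus. The other members act further down: Prkcd is the delta isoform of protein kinase C, Rgs16 speeds GTP hydrolysis on G protein alpha subunits, and Ramp3 is a receptor activity-modifying protein that sets the ligand preference of calcitonin-family receptors. Plekhg1 is a guanine nucleotide exchange factor and Synpo2 is an actin-binding protein.

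In the RefSeq annotation of mouse assembly GRCm38.p6, Gbx2 lies at chr1:89927962-89931176 and Rgs16 at chr1:153740353-153745468. Synpo2 lies at chr3:123076519-123236168 and Lef1 at chr3:131110297-131224357. Plekhg1 spans chr10:3740251-3967303 and Ramp3 spans chr11:6658506-6677478. Prkcd occupies chr14:30595353-30626414 and Tcf7l2 occupies chr19:55741797-55933659. The 250 bases before each annotated start site (13 sites for the 8 genes) were searched on both strands for CTTTGA, a core of sites bound by factors of the TCF/LEF family, and for TAATTA, a core of homeodomain sites. No match of 1 string overlapped a match of the other. CTTTGA was present at 2 of the 13 sites (15.4%), of Prkcd and Lef1, against 13.8% of all 32851 RefSeq windows of the same length. TAATTA was present at 1 site (7.69%), of Synpo2, against 4.84% of all windows. A match describes the letters in the window and is no evidence of binding.

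The stretches below come from RefSeq (GRCm38.p6) for the 4 genes whose level was highest in horizontal fraction 4 and for Synpo2, the member with TAATTA. Each is given 5′ to 3′ on the strand of the gene, with capitals marking a match. All but that of Prkcd end where the annotated gene begins. For Prkcd only the 30 bases around its match are shown, and they lie inside the annotated span of the gene. The match starts 139 bases before a start site and reads as the reverse complement of CTTTGA. In Synpo2 the match starts 224 bases before the start site, which lies inside the annotated span of the gene, past the end of the stretch shown.
Prkcd, chr14:30626330-30626359, minus strand: aggacttgcaacTCAAAGaggctgagacgc
Rgs16, chr1:153740103-153740352, plus strand: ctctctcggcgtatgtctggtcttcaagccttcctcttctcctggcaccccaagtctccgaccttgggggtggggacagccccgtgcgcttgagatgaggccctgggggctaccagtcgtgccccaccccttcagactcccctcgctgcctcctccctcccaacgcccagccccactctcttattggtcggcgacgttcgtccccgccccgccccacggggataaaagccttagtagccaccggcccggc
Tcf7l2, chr19:55741560-55741796, plus strand: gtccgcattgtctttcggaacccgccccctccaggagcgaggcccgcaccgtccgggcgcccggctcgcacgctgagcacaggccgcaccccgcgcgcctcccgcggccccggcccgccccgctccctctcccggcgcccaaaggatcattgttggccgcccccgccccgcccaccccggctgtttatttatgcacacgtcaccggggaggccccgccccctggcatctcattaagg
Ramp3, chr11:6658283-6658505, plus strand: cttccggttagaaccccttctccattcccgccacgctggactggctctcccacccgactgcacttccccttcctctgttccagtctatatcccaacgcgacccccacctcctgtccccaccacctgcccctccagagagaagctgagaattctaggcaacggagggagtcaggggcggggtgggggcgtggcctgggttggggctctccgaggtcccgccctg
Synpo2, chr3:123236169-123236399, minus strand: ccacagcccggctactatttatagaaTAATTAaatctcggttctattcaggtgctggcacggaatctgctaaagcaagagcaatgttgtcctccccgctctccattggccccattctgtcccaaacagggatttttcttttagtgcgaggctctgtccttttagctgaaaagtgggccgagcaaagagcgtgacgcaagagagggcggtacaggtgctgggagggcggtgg

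The axes were read from marker genes of known regions. Over the horizontal series, 6 cerebral cortex markers together were highest in fraction 1 and 6 hypothalamus markers in fraction 6, so the series ran from dorsal to ventral. Over the coronal series, 6 cerebellum markers were highest in fraction 2, so fraction 1 was the caudal end. The sagittal series ran from 1 side to the other, with the midline between fractions 5 and 6, and which side came first is not used here. Array brightness, as the 75th percentile of signal, ranged from 135 (sagittal fraction 1) to 574, the number of detected probes from 24822 to 34240, and no spot was saturated. The arrays lay on 4 slides, with all 6 horizontal fractions on slide 1 together with coronal fractions 1 and 2. Coronal fractions 3 to 10 lay on slide 2, sagittal fractions 1 to 4 on slide 4, and the others on slide 3.

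Horizontal fraction 4 was singled out in advance together with the gene list, so the counts in it are a description. The members were most often highest in it, while Gbx2, Plekhg1 and Synpo2 were highest in fraction 6 and Lef1 in fraction 1. Prkcd, Tcf7l2, Ramp3 and Rgs16, 4 of the 8 genes, were highest in fraction 4, against 10.4% of all tested probes. The lead of Rgs16 was only 0.08 log2. With the array median as the scale, 7 of the 8 were highest there, against 34.2% of tested probes. Lef1 and Gbx2 were second there, so that 6 of the 8 were highest or second, against 27.4% of all tested probes. The median difference between fraction 4 and the mean of the other 5 fractions was 0.91 log2 over the members and -0.02 over all tested probes. No position was replicated, so fraction 4 as such has no test.

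Prkcd had the largest lead in horizontal fraction 4 among the 8 genes. Its levels in fractions 1 to 6 were 0.03, 0.73, 1.58, 3.18, 2.01 and 0.94. It rose stepwise from the dorsal end to fraction 4 and fell on to the ventral end, with fraction 4 above the next fraction by 1.18 log2. A lead of over 1 log2 in fraction 4 was seen for 0.188% of all tested probes and for no other member. Prkcd was 8.86-fold higher in fraction 4 than in fraction 1. A second probe, A_55_P2008071, led by 1.10 log2 in the same fraction. Even so, the smooth trend of Prkcd along the axis did not pass the test (fitted range 2.71 log2, limma adjusted p = 0.0732).

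Tcf7l2 had levels of -1.34, -0.36, -0.03, 0.74, 0.00 and -0.86 from the dorsal to the ventral fraction. Fraction 4 led fraction 5 by 0.73 log2, and the peak was 4.23-fold over fraction 1. The 4 inner fractions were higher than both ends of the axis. This trend passed the test (fitted range 1.83 log2, limma adjusted p = 0.0353).

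Rgs16 had levels of -0.65, -0.24, 0.18, 0.76, 0.68 and -0.23. Its peak was a plateau over fractions 4 and 5, whose difference of 0.08 log2 was about the size of the SD between repeated spots. The trend did not pass the test (fitted range 1.39 log2, limma adjusted p = 0.0817). Its peak was 2.66-fold over fraction 1.

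Ramp3 had levels of 4.02, 4.23, 4.10, 4.65, 3.41 and 2.43. The dorsal 4 fractions lay within 1 log2 of the peak, and the ventral 2 were lower, so that the profile was a fall towards the ventral side with a rise of 0.42 log2 in fraction 4. This trend passed the test (fitted range 1.98 log2, limma adjusted p = 0.0477). Tcf7l2 and Ramp3 were thus 2 members of 8 past the horizontal trend test, against 15.8% of all tested probes, and 5 of the 8 had an unadjusted p under 0.05, against 37.1% of all tested probes. Neither call held when any 1 of the 6 fractions was left out (adjusted p 0.0596 to 0.131 for Tcf7l2 and 0.0732 to 0.419 for Ramp3). Both were lost with 1 spline degree of freedom fewer (0.863 and 0.524), and that of Ramp3 also with quantile normalization (0.0615) and with no filter on dim probes (0.0589). Other members passed under other scalings, Prkcd and Rgs16 with the array median (0.0093 and 0.0119) and normexp (0.0254 and 0.0371), Gbx2 with these and quantile normalization (0.0162, 0.0327 and 0.0486), and Lef1 with the array median (0.0222). Of all tested probes, 59.8% passed with the array median, 28% with normexp and 21.2% with quantile normalization.

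Gbx2 divided the axis into a dim dorsal part and a bright ventral part. Its levels in fractions 1 to 6 were -4.31, -5.73, -4.17, -0.83, -1.25 and -0.30, and in fractions 1 and 2 it was not well above background. Fractions 4 to 6 formed a plateau within 1 log2 of the peak in fraction 6, at least 20.2-fold above fraction 2. The markers of the hypothalamus, taken as a mean over 6 genes, also peaked in fraction 6, at 4.62 log2 above their series mean, but lay 1.88 log2 below it in fraction 4. Their part in the Gbx2 profile was not tested. Fraction 6 was the dimmest horizontal array, with a 75th percentile of 233 in signal, against 454 in fraction 4. With the array median as the scale, Gbx2 was highest in fraction 4. The part of array brightness in its profile was not tested either. The Gbx2 trend did not pass the test (limma adjusted p = 0.0861). Its fitted range of 5.26 log2 rests in part on levels under background.

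Lef1 had levels of 0.01, -0.46, -0.46, -0.03, -0.68 and -0.92, all within 1 log2 of each other. Fractions 1 and 4 were level with each other at a difference of 0.04 log2, less than the SD between repeated spots. Its HMG-box relative Tcf7l2 was lowest in fraction 1, where Lef1 was highest. The Lef1 trend did not pass the test (limma adjusted p = 0.282). Plekhg1 had levels of -3.88, -4.64, -4.25, -4.05, -4.57 and -3.08, and was well above background in fractions 3, 4 and 6 only. Synpo2 ranked 4 of 6 in fraction 4, with levels of -2.14, -2.57, -1.95, -2.27, -3.14 and -1.84. These last 2 genes were highest in the most ventral fraction, and neither had a horizontal trend past the test (limma adjusted p = 0.271 and 0.911). That fraction was the dimmest horizontal array, with a 75th percentile of 233 in signal, against 454 in fraction 4. Plekhg1 was highest in fraction 4 instead with the array median and with quantile normalization. The part of array brightness in these ventral peaks was not tested.

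**Figure D1:**
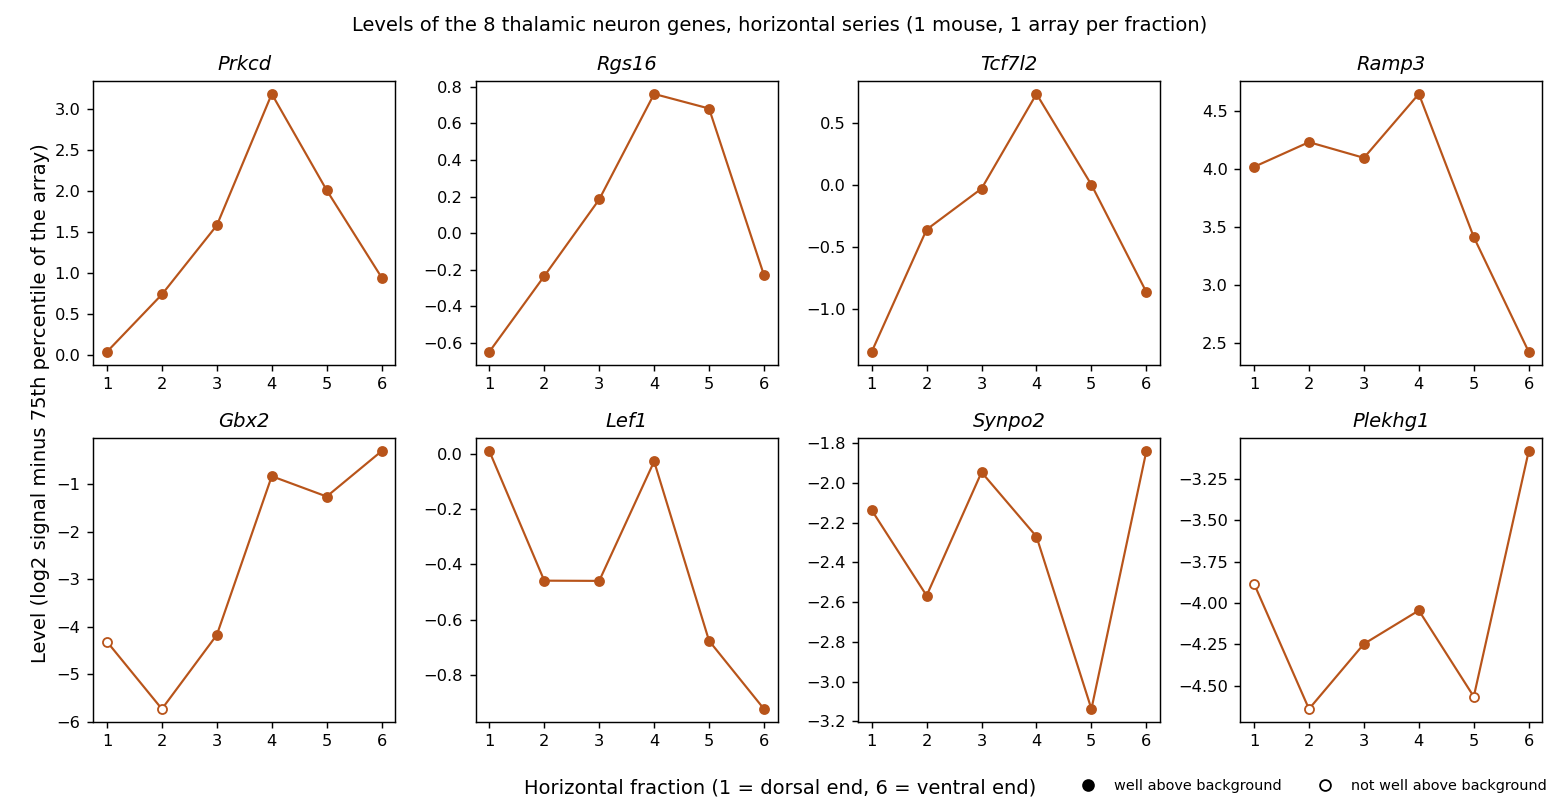
Scaled levels (log2 signal with the array's 75th percentile subtracted) of the 8 genes in horizontal fractions 1 (dorsal) to 6 (ventral) of 1 mouse, 1 array per point, each panel with its own scale. Prkcd, Rgs16, Tcf7l2 and Ramp3 are highest in fraction 4, while Gbx2, Synpo2 and Plekhg1 are highest in fraction 6 and Lef1 in fraction 1. Open points are not well above background.

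Along the rostrocaudal axis, a peak in coronal fractions 6 and 7 was shared by most of the members. Fractions 6 and 7 took the top 2 places for 5 of the 8 genes, Prkcd, Rgs16, Tcf7l2, Gbx2 and Ramp3, against 1.12% of all tested probes. This count was 5 under all 3 other scalings as well. Prkcd, Rgs16 and Tcf7l2 were highest in fraction 6, 3 of 8 against 5.16% of tested probes. The same 3 genes were highest in both coronal fraction 6 and horizontal fraction 4, against 1.01% of tested probes. These 2 peaks come from different mice. Fraction 6 exceeded the mean of the other 11 coronal fractions by a median of 1.57 log2 over the members and -0.03 over all tested probes.

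Prkcd had the largest coronal range among members well above background in every fraction. Its lowest, median and highest levels were -0.29, 1.11 and 3.98. Fraction 6 at 3.98 and fraction 7 at 3.01 stood over a caudal shoulder of 1.97, 2.11 and 2.06 in fractions 1 to 3 and a dip to 0.87 in fraction 4. From fraction 8 at 0.85 the level fell towards the rostral end, where it was 19.4-fold under the peak. The caudal shoulder lay where 6 cerebellum markers were high (4.91 log2 above their series mean in fraction 2), and their part in it was not tested. The smooth coronal trend of Prkcd did not pass the test (fitted range 2.63 log2, limma adjusted p = 0.124).

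Rgs16 had lowest, median and highest coronal levels of -1.47, 0.06 and 2.01. It reached 2.01 in fraction 6 and 1.53 in fraction 7, with 0.72 in fraction 5 and 0.17 in fraction 8, and was 11.1-fold under its peak in fraction 10. Unlike Prkcd it had no separate caudal shoulder, with 0.01, 0.18, 0.01 and 0.11 in fractions 1 to 4. Its trend did not pass the test (limma adjusted p = 0.149).

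Tcf7l2 had lowest, median and highest coronal levels of -1.83, -0.89 and 0.82. Its high zone was wider, with levels of 0.23, -0.08, 0.82 and 0.61 in fractions 4 to 7. The step at the rostral border was steep, since fraction 8 lay at -1.55. The peak was 6.30-fold over fraction 2, and the trend did not pass the test (fitted range 2.19 log2, limma adjusted p = 0.0886). It passed in 1 of 20 alternatives, without fraction 1 (fitted range 2.43 log2, limma adjusted p = 0.0203).

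Gbx2 had lowest, median and highest coronal levels of -6.71, -3.04 and -0.71. Fractions 6 and 7, at -0.91 and -0.71, stood above fractions 5 and 8 at -2.22 and -2.47. The lowest fraction, 4, and the rostral fractions 10 to 12 were not well above background. The peak was at least 16.3-fold above fraction 4. Caudal fractions 1 and 2 also gave levels of -2.43 and -2.49. The fitted trend missed the threshold (limma adjusted p = 0.141). It passed in 1 of 20 alternatives, without fraction 4 (limma adjusted p = 0.0295). Both p-values rest in part on levels under background.

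Ramp3 had lowest, median and highest coronal levels of 1.72, 3.52 and 5.00. Fractions 6 and 7 were level at 4.98 and 5.00, and the caudal fraction 2 and the rostral fraction 9 reached 4.23 and 4.20. The rostral end was 9.67-fold lower than the peak. Ramp3 passed the coronal trend test (fitted range 2.65 log2, limma adjusted p = 0.0384), as did Synpo2 (fitted range 1.28 log2, limma adjusted p = 0.00969). These were 2 of the 8 members, against 33.7% of all tested probes, and 3 members had an unadjusted p under 0.05, against 47.3% of all tested probes. The Ramp3 call was lost without any 1 of fractions 1, 2, 3, 7, 9, 11 and 12 (adjusted p up to 0.231), with the array median (0.0562) and with 1 spline degree of freedom fewer (0.0554), and that of Synpo2 without fraction 1 (0.0526). Both were lost with the slide as a term (0.517 and 0.508), where the fitted ranges were 2.79 and 1.55 log2, and over the fractions of slide 2 alone (0.559 and 0.357), where Rgs16 was the member called (0.0442).

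Synpo2 fell from the caudal to the rostral end. Its lowest, median and highest coronal levels were -2.81, -2.34 and -1.52, with the highest in fraction 1 and the lowest in fraction 12, a 2.45-fold difference. Lef1 was flat, between -1.03 and 0.13, with fractions 12 and 6 on top at 0.13 and 0.12. Plekhg1 was detected in 5 of 12 coronal fractions and ranged from -5.10 to -3.50, with fractions 1 and 6 on top. Its highest fraction was at least 1.48-fold over its lowest. Lef1 and Plekhg1 showed no trend past the test (limma adjusted p = 0.626 and 0.646).

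**Figure D2:**
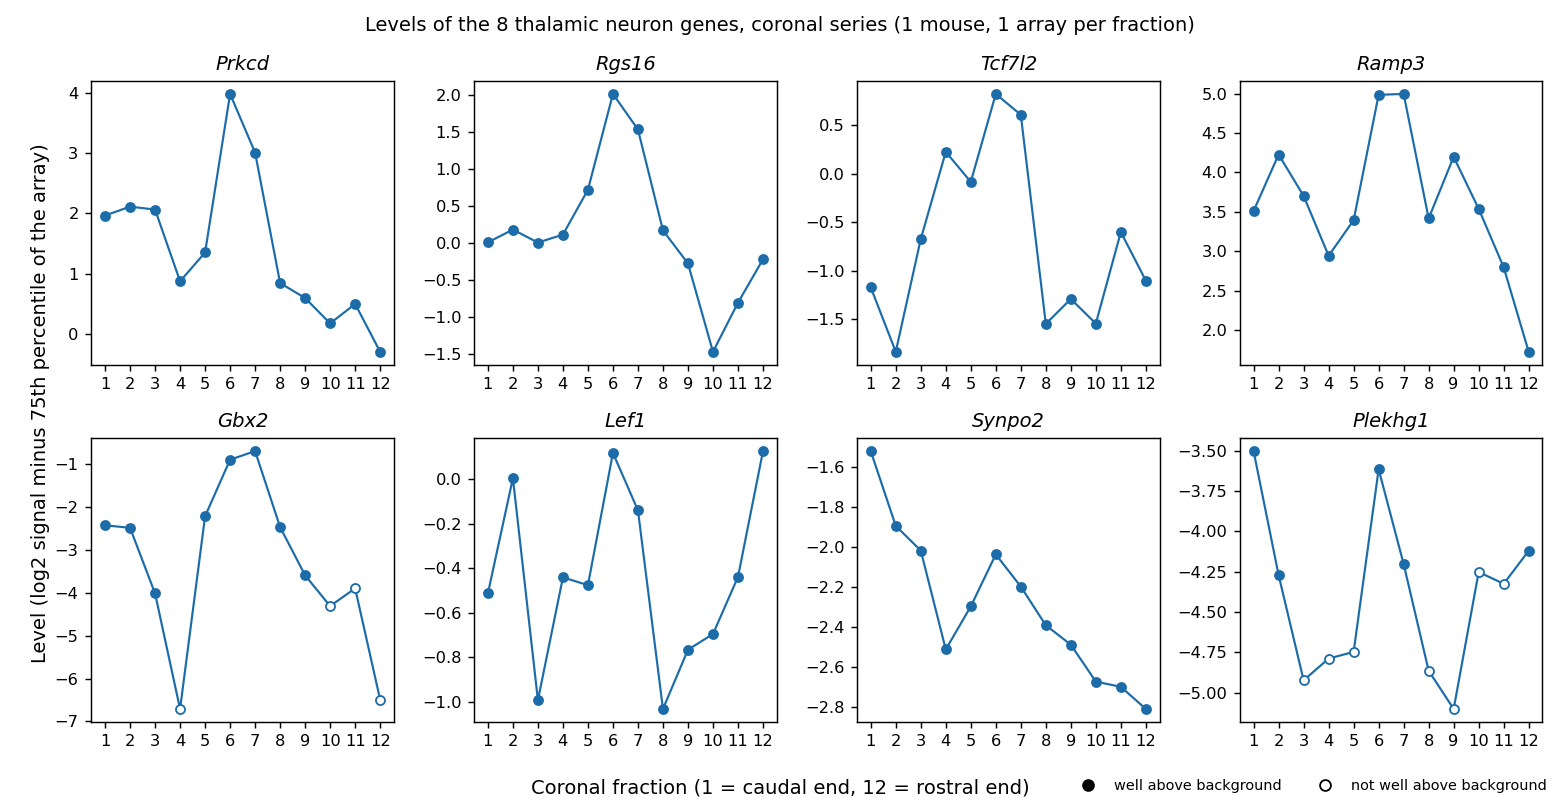
Scaled levels (log2 signal with the array's 75th percentile subtracted) of the 8 genes in coronal fractions 1 (caudal) to 12 (rostral) of 1 mouse, 1 array per point, each panel with its own scale. Prkcd, Rgs16 and Tcf7l2 peak in fraction 6, Ramp3 and Gbx2 in fraction 7, and Synpo2 declines from -1.52 to -2.81. Open points are not well above background.

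Across the sagittal series all 8 genes were highest in a medial fraction, 4 to 7, against 26.2% of all tested probes (7 of 8 against 21.7% after normexp background correction, and 8 of 8 against 43.0% with the array median and 33.5% with quantile normalization). The mean over the 4 medial fractions exceeded that over the 6 lateral fractions for 8 of 8 genes, against 44.9% of tested probes, and for 7 of 8 after normexp background correction, where Plekhg1 reversed. The median difference was 1.35 log2 for the members and -0.08 for all tested probes. It was 0.68 and -0.23 after normexp, and 1.81 and 0.38 with the array median. With the levels under background set at the floor of their array, the members' median was 1.13 log2. Markers of other regions and cell types were higher in the medial fractions too, with medians of 1.45 log2 for the cerebellum (6 of 6 genes), 1.94 for the midbrain (5 of 5), 1.25 for myelin (6 of 6) and 0.81 for the choroid plexus (5 of 5), and their part in the members' differences was not tested. None of the 8 differences passed limma's test after adjustment over 32364 probes, where 48 probes (0.148%) did, and 6 members had an unadjusted p under 0.05, against 24.9% of all tested probes. The lateral arrays were mostly the dimmer ones, with a 75th percentile of 135 to 476 in signal against 385 to 568 for the medial arrays, and its part in these differences was not tested.

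Tcf7l2 had a medial mean of 0.97 ± 0.56 (SD, n = 4 fractions) and a lateral mean of -0.94 ± 0.81 (SD, n = 6 fractions). Its lowest, median and highest sagittal levels were -2.01, -0.13 and 1.80. The groups did not overlap, since the lowest medial level was 0.60 and the highest lateral level was -0.07. The difference was 1.92 ± 0.43 log2 (SE; limma adjusted p = 0.109). Without lateral fraction 3 the difference passed the test, at 2.01 log2 with a limma adjusted p of 0.0297. This was the only one of 18 alternatives in which it, Prkcd or Rgs16 passed, and 12.2% of all tested probes passed in that fit. Tcf7l2 peaked in fraction 5, 1.03 log2 over fraction 6.

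Prkcd had a medial mean of 2.55 ± 0.38 (SD, n = 4 fractions) and a lateral mean of 0.74 ± 0.82 (SD, n = 6 fractions). Here too the groups did not overlap (2.21 against 1.69), which was so for 2 members and for 4.08% of all tested probes in this direction. The difference was 1.81 ± 0.40 log2 (SE; limma adjusted p = 0.110), and 2.00 log2 without fraction 3 (limma adjusted p = 0.0249). The profile had a maximum on each side of the midline, with 3.04 in fraction 4 and 2.66 in fraction 7, and a shallow dip to 2.29 and 2.21 in fractions 5 and 6. Mirror fractions 3 and 8, at 1.69 and 1.65, and 5 and 6 differed by less than 0.1 log2, while 2 and 9 differed by -0.33, 4 and 7 by -0.38, and 1 and 10, at -0.07 and 0.98, by 1.06. The sagittal trend of Prkcd passed the test (fitted range 3.02 log2, limma adjusted p = 0.0480).

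Rgs16 had a medial mean of 0.63 ± 0.68 (SD, n = 4 fractions) and a lateral mean of -1.01 ± 1.02 (SD, n = 6 fractions). It too had maxima beside the midline, with 1.10 in fraction 4 and 0.76 in fraction 7, but fraction 5 was also high at 1.02 and fraction 6 low at -0.36. The outermost fractions, 1 and 10, were the lowest at -2.21 and -2.12. The medial difference was 1.64 ± 0.52 log2 (SE; limma adjusted p = 0.140) and passed the test only without fraction 3 (1.90 log2, limma adjusted p = 0.0354). The sagittal trend passed it with all fractions (fitted range 3.02 log2, limma adjusted p = 0.0152). Prkcd and Rgs16 were 2 of 8 members past the sagittal trend test, against 14.7% of all tested probes, and 5 members had an unadjusted p under 0.05, against 32.9% of all tested probes. The Prkcd call was lost without any 1 of fractions 1 to 8 (adjusted p up to 0.209), with the array median (0.0984), with quantile normalization (0.0709) and with the slide as a term (0.0824), the Rgs16 call without fraction 1 (0.132) or 4 (0.0545), and both were lost over the fractions of slide 3 alone (0.711 and 0.692). Other members passed this test in a few of the 18 alternatives. These were Gbx2 in 4 (lowest limma adjusted p = 0.0254), Plekhg1 in 3 (0.0156), and Lef1, Ramp3, Synpo2 and Tcf7l2 in 1 each.

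Gbx2 peaked at the midline, with -0.93 and -0.97 in fractions 5 and 6, and was not well above background in fractions 1, 2 and 9. The medial mean of -1.56 ± 0.72 (SD, n = 4 fractions) and the lateral mean of -3.94 ± 1.94 (SD, n = 6 fractions) differed by 2.38 ± 0.90 log2 (SE; limma adjusted p = 0.160). Since 3 of the 6 lateral fractions were not well above background, that amount rests on values under background, and with these at their floor the difference was 1.73 log2. Hypothalamus markers were also higher in the medial fractions, by a median of 4.79 log2 over 6 genes, and their part in the Gbx2 profile was not tested. The groups overlapped, because lateral fraction 10 reached -1.57. Lef1 was highest in fraction 5 at 0.32, followed by the outermost fraction 1 at 0.24, and was lowest in fraction 9 at -1.40. Its medial fractions were tight (0.19 ± 0.10, SD, n = 4 fractions), its lateral fractions were not (-0.38 ± 0.56, SD, n = 6 fractions), and the groups overlapped.

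Ramp3 was highest in fraction 7 at 4.77, then in fraction 4 at 4.43, again beside the midline rather than on it. Its medial difference of 0.63 ± 0.26 log2 (SE; limma adjusted p = 0.182) was small next to a lateral range of 3.11 to 4.39. Synpo2 was highest in fraction 7 at -1.80 and not well above background in fractions 9 and 10, with a medial difference of 0.79 ± 0.35 log2 (SE; limma adjusted p = 0.192), or 0.62 log2 with these fractions at their floor. Plekhg1 was highest in fraction 7 at -2.19 and lowest in fraction 2, which it exceeded at least 7.32-fold, and it was not well above background in 4 of the 6 lateral fractions. Its medial difference was 1.07 ± 0.72 log2 (SE; limma adjusted p = 0.347), and 0.28 log2 with those 4 at their floor. With the mirror fraction as a block, no tested probe differed between the sides after adjustment in limma (0 of 32364, 0%), and 1408 had an unadjusted p under 0.05. Among the members, 0 passed and 1 had an unadjusted p under 0.05 (4.35% of all tested probes), Plekhg1, for which 4 of the 10 levels were under background, so that no amount is given.

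The medial and lateral fractions were compared within slides as well. On slide 3, with 3 fractions against 3, the differences were 1.76 log2 for Tcf7l2, 1.54 for Prkcd and 1.64 for Rgs16. On slide 4, with fraction 4 alone against fractions 1 to 3, they were 1.83, 2.41 and 1.95 log2. Lef1 and Ramp3 differed by 0.88 and 0.53 log2 on slide 3 and by 0.23 and 0.75 log2 on slide 4. With levels under background at their floor, Gbx2 differed by 1.16 log2 on slide 3 and by 2.01 log2 on slide 4. Counted in this way, 7 of the 8 genes were higher in the medial fractions on slide 3, where Plekhg1 was at -0.13 log2, and 8 of 8 on slide 4. Among all tested probes 49% and 41.5% had a higher medial mean on these slides, counted without that floor. Without it Plekhg1 was at 0.29 log2 on slide 3, an amount that rests on levels under background.

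**Figure D3:**
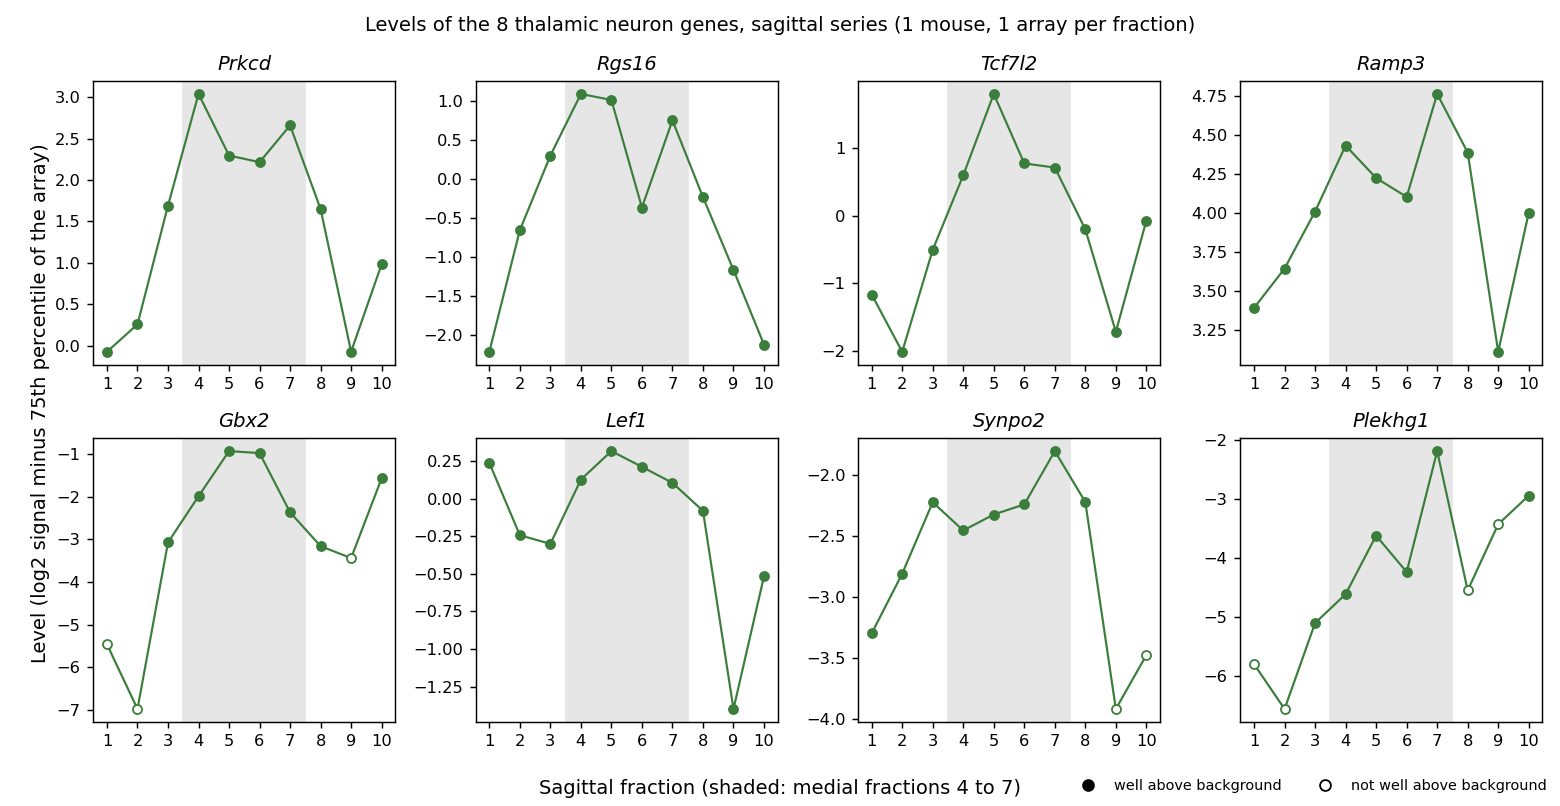
Scaled levels (log2 signal with the array's 75th percentile subtracted) of the 8 genes in sagittal fractions 1 to 10 of 1 mouse, 1 array per point, each panel with its own scale; the shaded band covers medial fractions 4 to 7. All 8 maxima fall in the band, on fraction 4 or 7 for Prkcd, Rgs16, Ramp3, Synpo2 and Plekhg1 and on fraction 5 for Tcf7l2, Gbx2 and Lef1. Open points are not well above background.

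The probes of the same gene did not always share a profile. Tcf7l2 is known to be spliced into many forms. Probe A_55_P2260094 followed the main Tcf7l2 probe (r = 0.83 over 28 fractions, values centred within each series), with its own maxima in coronal fraction 6, horizontal fraction 4 and sagittal fraction 5. It was well above background in 15 fractions, among them coronal fractions 3 to 7 and sagittal fractions 3 to 7. It passed the coronal and sagittal trend tests (limma adjusted p = 0.00789 and 0.0326). It was also higher in the medial sagittal fractions (limma adjusted p = 0.0118). In 5 of the 6 lateral fractions it was not well above background, and with these at their floor the difference was 1.69 log2. The 3 p-values of this probe rest in part on levels under background. The remaining Tcf7l2 probe, A_55_P2143724, was well above background in all 28 fractions but stayed between -2.11 and -0.44 and did not follow the main probe (r = -0.12). It had no trend past the test in any series (limma adjusted p 0.321 to 0.738), and in horizontal fraction 4 it lay 0.69 log2 below its highest fraction.

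Synpo2 probe A_52_P223127 was well above background in only 5 fractions, so its likeness to the main probe cannot be read (r = -0.06). These were coronal fraction 6 at -3.08, horizontal fraction 4 at -3.81 and sagittal fractions 3 to 5 at -4.52, -3.70 and -4.37. The highest coronal and horizontal fractions of this probe were also those of Prkcd. Only these fractions took it past the filter along those axes, so the match is a description only. The trends of A_52_P223127 did not pass the test (limma adjusted p 0.466 to 0.749). The remaining Synpo2 probe, A_55_P2159309, was well above background in 1 fraction and was not tested. The probes of Prkcd agreed closely (r = 0.99) and gave the same peak fraction in each series. The transcripts that each probe reads were not resolved here.

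**Figure D4:**
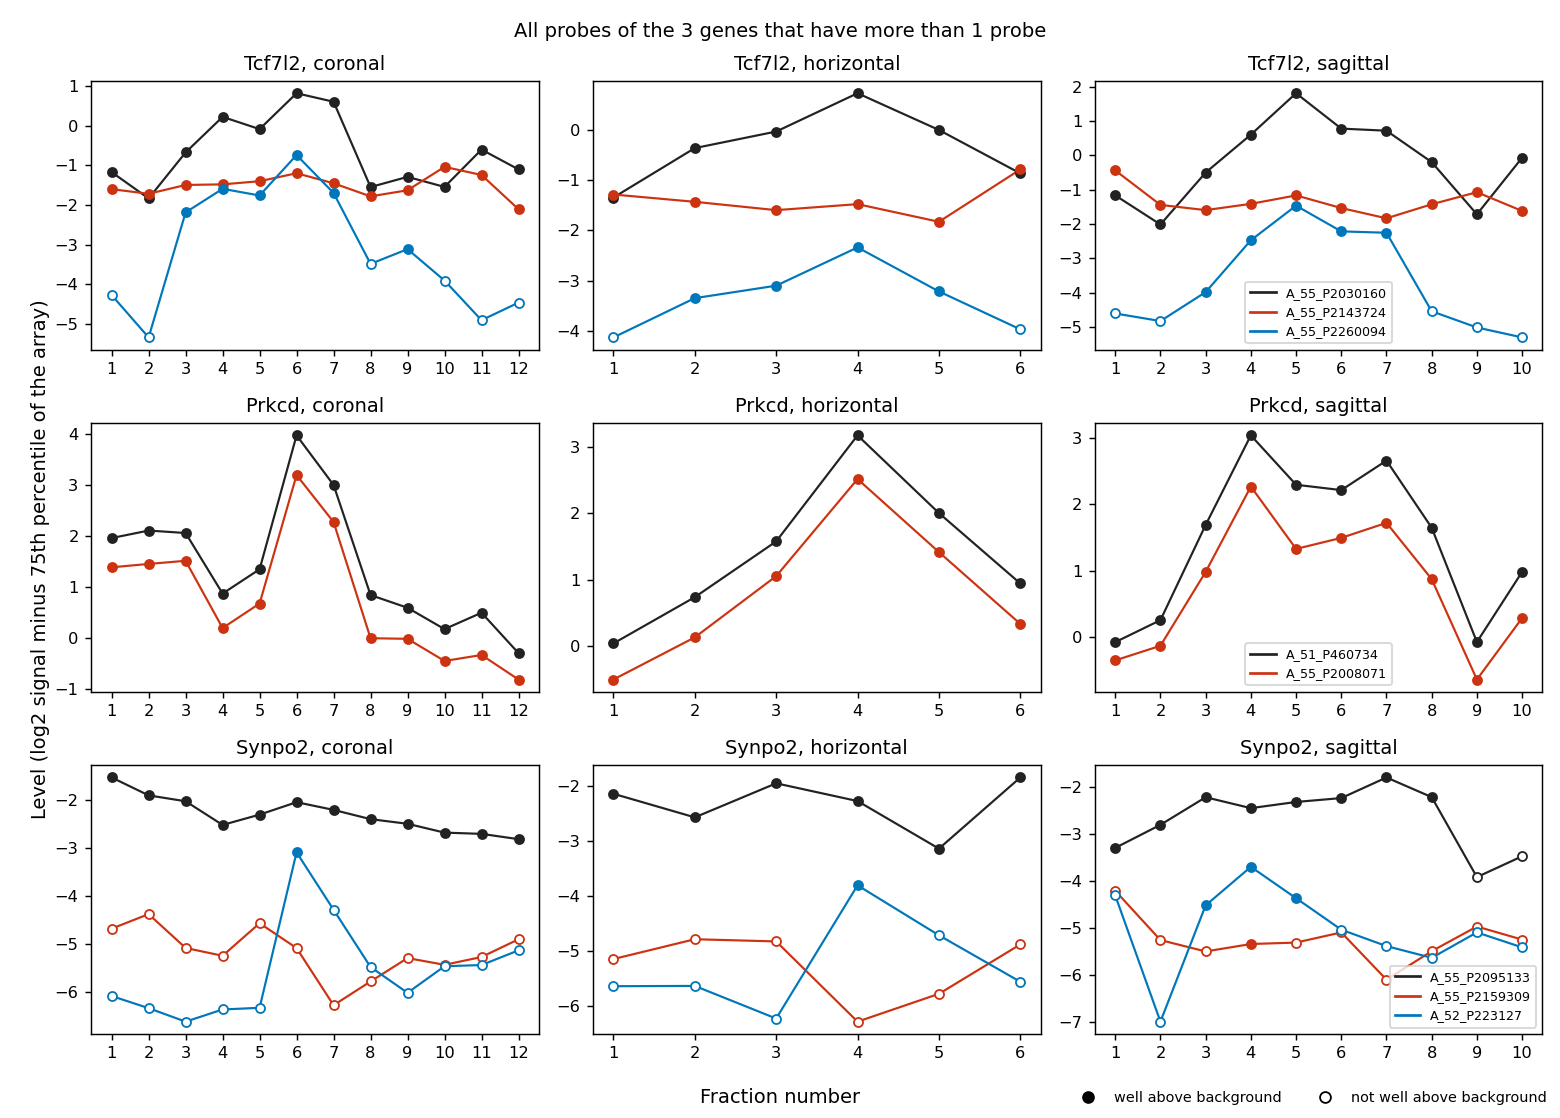
Scaled levels (log2 signal with the array's 75th percentile subtracted) of every probe of Tcf7l2 (3 probes), Prkcd (2) and Synpo2 (3) against the fraction number in the coronal, horizontal and sagittal series, 1 array per point. The Prkcd probes run in parallel, Tcf7l2 probe A_55_P2143724 stays between -2.11 and -0.44, and Synpo2 probe A_52_P223127 is above background in coronal fraction 6 and horizontal fraction 4 but not in their neighbours. Open points are not well above background.

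The members differed in how closely they kept together. Likeness was measured as Pearson's r over the 28 fractions after centring each series. It is a description only, since neighbouring fractions of a brain share tissue. All 28 pairs of members had an r above 0, with a median of 0.43 and a range of 0.01 (Lef1 with Plekhg1) to 0.82 (Prkcd with Rgs16). Within the horizontal series alone, 13 of the 28 pairs had an r under 0, and the median was 0.09. Among the 5 genes well above background in every fraction, 1 of 10 pairs was under 0 there, at -0.04. In the coronal and sagittal series 0 and 1 pairs were under 0, with medians of 0.44 and 0.62. Tcf7l2 reached 0.74 with Prkcd and 0.68 with Rgs16, and no pair exceeded 0.85. Against the mean of the other 7 members, Prkcd was closest at 0.90, followed by Rgs16 and Tcf7l2 at 0.72 and 0.71. Ramp3 reached 0.59 and Synpo2 0.52, while Lef1 reached 0.33. Gbx2 gave 0.66, but it was well above background in only 19 of the 28 fractions. Plekhg1 gave 0.39, but 14 of its 28 levels were under background.

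Outside the list, the tested gene closest to the mean profile of the 8 members was Wnt9b, a secreted Wnt ligand (r = 0.90). It was followed by Vangl1, a planar cell polarity protein (0.87), Farp2, a guanine nucleotide exchange factor (0.85), Mrvi1 (0.84), Wfdc10 (0.83) and Chrna4, the alpha 4 subunit of the nicotinic acetylcholine receptor (0.82). Slc29a1, an adenosine transporter (0.81), Dcstamp (0.80), Pitpnc1 (0.80) and Cited1 (0.80) completed the first 10. Farp2 varied by at most 0.53 log2 within a series and was highest in horizontal fraction 5, since r takes no account of the size of a change. Wfdc10 was well above background in 12 and Dcstamp in 15 of the 28 fractions. Wnt9b was also the gene closest to Prkcd (r = 0.95). It was highest in coronal fraction 6 at -0.35, horizontal fraction 4 at -1.44 and sagittal fraction 4 at -1.30, and was detected above background in 16 of the 28. In horizontal fraction 4 it led the next fraction by 1.18 log2, as Prkcd did.

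Shox2, a homeodomain factor, was closest to Tcf7l2 (r = 0.85), and Sox8, an HMG-box factor, was closest to Rgs16 (0.90). Ramp3 was closest to Rtn4rl1 (0.86), a relative of the Nogo receptor, and Gbx2 to Cckar (0.81), a cholecystokinin receptor. Shox2 was well above background in 14 and Cckar in 13 of the 28 fractions. Lef1 was closest to Slc3a2 (0.79) and Synpo2 to Kctd11 (0.78). The closest gene to Plekhg1 was well above background in 5 fractions, and no likeness is given for it.

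A list of 14 other thalamus-enriched genes, all of which were tested, was read in the same way. Of these, 8 were highest in horizontal fraction 4, against 10.4% of all tested probes, and 13 were higher in the medial sagittal fractions, against 44.9%. Along the coronal axis 6 of the 14, among them Rora and Cacna1g, were highest in caudal fraction 2, and 4 in fraction 6. Their median lead of fraction 4 over the mean of the other fractions was 0.87 log2, next to 0.91 for the members and -0.02 for all tested probes. Tnnt1, a slow skeletal troponin T, was highest in fraction 4 by 1.14 log2, with levels of 1.80, 1.74, 2.03, 3.32, 2.18 and 2.14. Rora, a nuclear receptor, led there by 0.55 log2, Cacna1g, a T-type calcium channel, by 0.43, and Lhx9, a LIM-homeodomain factor, by 0.41. The other leads there were 0.06 to 0.38 log2. Slc17a6, the vesicular glutamate transporter of thalamic projection neurons, was highest in fraction 5 at 2.58, with 2.35 in fraction 4. Past the trend tests were 10 of the 14 in the coronal, 4 in the horizontal and 6 in the sagittal series, against 33.7%, 15.8% and 14.7% of all tested probes.

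Among 36 genes of the Wnt and β-catenin pathway, 33 were tested. Trends past the test were found for 20 in the coronal, 8 in the horizontal and 4 (12.1%) in the sagittal series, against 33.7%, 15.8% and 14.7% of all tested probes. In horizontal fraction 4, 14 were highest, against 10.4% of all tested probes. Apart from Wnt9b these leads were at most 0.67 log2, the value of the target gene Sp5. Most of them, from 0.02 (Pygo2) to 0.08 log2 (Fzd3), were about the size of the SD between repeated spots or less. Wnt3, a ligand, was past all 3 trend tests (limma adjusted p = 0.00088, 0.0275 and 0.00953). Wnt3 had horizontal levels of -4.78, -1.78, -1.47, -0.84, -0.96 and -1.97, and was lowest at the dorsal end, where it was not well above background. Axin2, a feedback target of the pathway, was well above background in 12 fractions and lay 0.73 log2 below its highest horizontal fraction in fraction 4. β-catenin itself, Ctnnb1, varied little there, at 0.07 log2 under its highest fraction.

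A further list held 22 genes that act with the members, such as G protein subunits, or are related to them. The relatives included other RGS proteins, protein kinase C isoforms and the other RAMPs. Of the 22, 21 had a named probe, 20 were tested and 5 were highest in horizontal fraction 4, against 10.4% of all tested probes. None of these led by over 1 log2. Prkch, the eta isoform of protein kinase C, had the largest lead, 0.20 log2, and Gnaq, a G protein subunit, the smallest, 0.03 log2. The relatives of Ramp3 had other profiles, with Ramp1 highest in fraction 6 and Ramp2 in fraction 1. Calcr, the calcitonin receptor, was highest in fraction 5 at -0.65, and Calcrl, the usual partner of Ramp3, was detected in 2 of 28 fractions and was not tested. Rgs4 and Rgs8 were highest in fractions 1 and 3 and passed the horizontal test (limma adjusted p = 0.0246 and 0.0244).

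Markers of neighbouring regions were followed in the same fractions. All 6 striatum markers, which include dopamine receptors and Adora2a, were highest in horizontal fraction 4 too, with a mean of 1.10 log2 above their series mean. Cerebellum markers lay 1.58 log2 above theirs in it, more than the members (0.84), and peaked in fraction 3. Along the coronal axis the striatum markers peaked in fraction 8, where the members averaged 0.24 log2 below their series mean, and lay at 0.02 in fraction 6, where the members averaged 1.41. In fraction 7 both were above their series means, the striatum markers by 1.57 log2 and the members by 1.11, and the part of striatal RNA in the members' values was not tested. Of 9 reticular and prethalamic genes and 6 tested habenula genes, 0 were highest in horizontal fraction 4, against 10.4% of all tested probes, counts too small to set them apart. As a list the former peaked in horizontal fraction 5 and coronal fraction 8. The habenula list lay at its series mean in horizontal fraction 4 (-0.00 log2). The habenula list did peak in coronal fraction 6 with the members, and in sagittal fractions 5 and 6 (1.38 and 1.34 log2), where Tcf7l2 and Gbx2 were also highest. The part of habenular RNA in those values was not tested. Hippocampus markers also peaked in coronal fraction 6, at 1.35 log2, with 0.29 in horizontal fraction 4. Hypothalamus markers peaked in coronal fraction 7 at 4.64 log2, with 1.60 in fraction 6. Midbrain and cerebral cortex markers were also above their series means in coronal fraction 6, by 1.36 and 1.12 log2. The part of these regions in the members' coronal peak was not tested.

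Other cell types were followed by their markers. The summed level of 6 myelin markers was 9.95 log2 in horizontal fraction 4 and 7.57 to 10.1 in the other fractions, with all 6 well above background in every fraction. Their mean profile had an r of 0.68 with that of the members over the 28 fractions, and the part of this in the members' profiles was not tested. The 6 endothelial markers were at 6.14 log2 in fraction 4 and 5.83 to 6.42 in the others (r = -0.19), all 6 well above background throughout. The 5 smooth muscle markers were at 2.80 log2 in fraction 4 and 2.56 to 4.02 in the others (r = 0.04). The mean of 5 choroid plexus markers was 1.49 and 1.81 log2 above its series mean in coronal fractions 6 and 7 and 1.14 above in horizontal fraction 4, with an r of 0.51 with the members. Their summed level was 7.33 log2 in horizontal fraction 4 and 2.64 to 7.66 in the others, 3 of the 5 were well above background in every fraction and the other two in 27, and their part in the members' profiles was not tested. The 6 neuron markers, the check on the labelled tissue, were well above background in all 28 fractions and at 9.13 log2 in fraction 4 against 9.04 to 9.29 elsewhere.

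**Figure D5:**
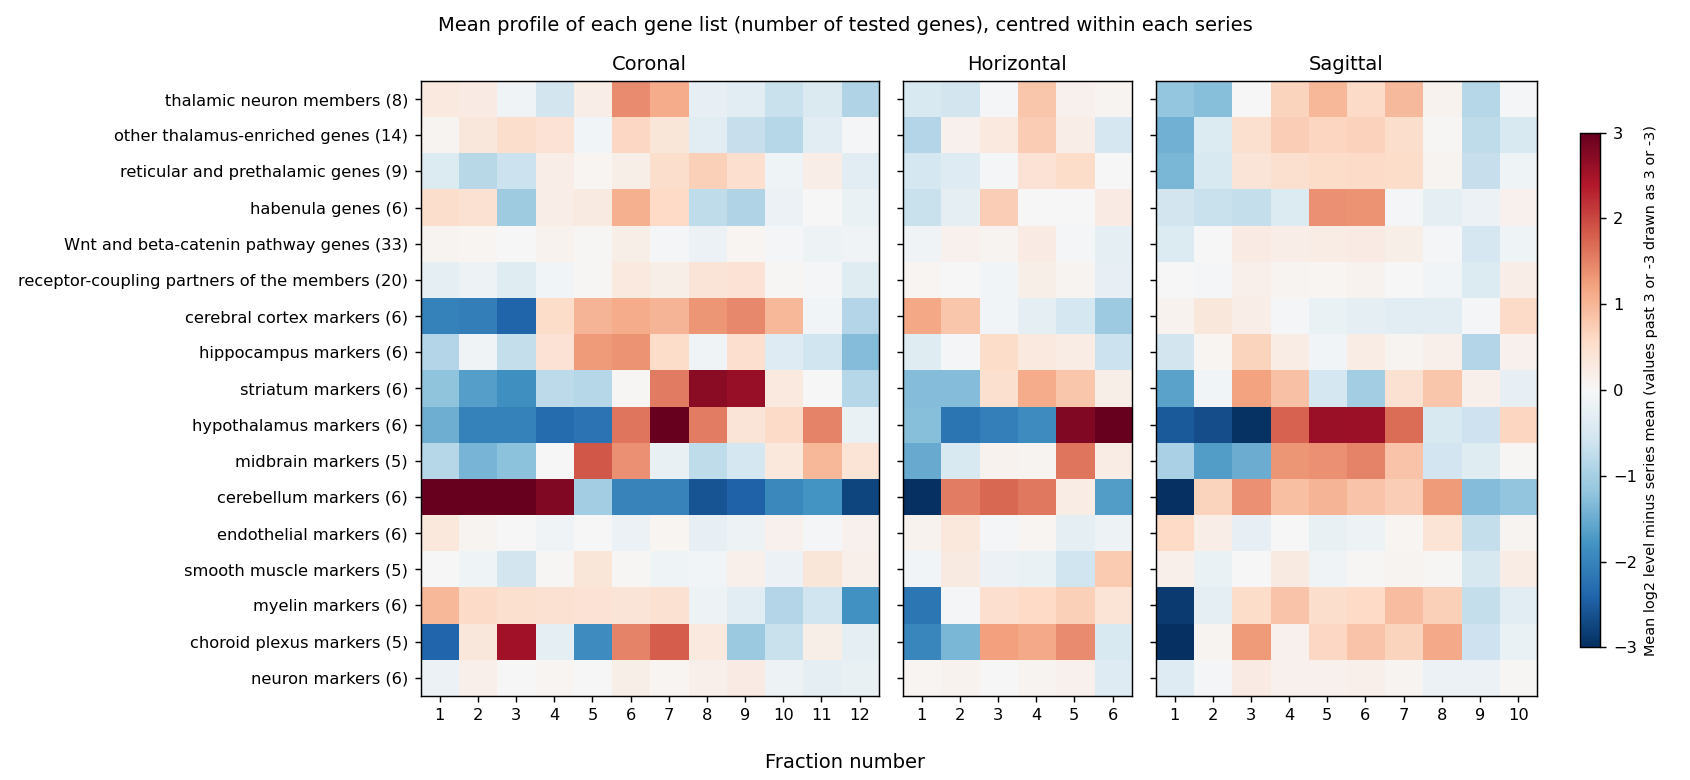
Mean centred log2 level of each gene list (rows, number of tested genes in brackets) in every fraction (columns) of the coronal, horizontal and sagittal series; red is above and blue below the mean of the series. The members (top row) are highest in coronal fractions 6 and 7 (1.41 and 1.11), horizontal fraction 4 (0.84) and sagittal fractions 4 to 7, while the striatum markers peak in coronal fraction 8 and horizontal fraction 4.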

How the data were processed

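Total RNA was amplified, labelled with Cy3 and measured on 1-colour Agilent arrays, 1 for each fraction. The deposited files hold spot intensity as read by Feature Extraction 10.5.1.1 (per the file headers), with spot background already subtracted. A table of log2 values for 44721 probes, deposited by the authors, differed from the values computed here by a constant of 0.00111 to 0.00758 per array and served as an alternative only.

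Here outlier spots were left out (108 to 176 per array), spots of a probe were averaged, and the 75th percentile was subtracted from log2 of the processed signal. A probe was taken as well above background where Feature Extraction had set the flag of that name for 0.5 or more of its spots. Of 55681 probes, 27235 (48.9%) were named, through RefSeq (GRCm38.p6). Where the lowest fraction was not well above background, a fold is a lower bound, "at least N-fold", against the higher of the probe's own level and the dimmest probe well above background on that array, which is also the floor used in means of levels under background.

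Trends were tested with limma 3.58.1 in R 4.3.3 (an F-test on natural cubic splines of position, with 3 degrees of freedom, or 2 for the horizontal series). The residual around the curve is the only error available. Medial against lateral fractions and the sides were limma contrasts. Adjusted p-values were Benjamini-Hochberg adjusted over 32364 probes (55551 with no filter on dim probes), with a threshold of 0.05. All p-values describe these 3 brains. Figures were drawn with matplotlib 3.10.9.

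The text names the 8 genes, the 10 genes most like their mean, the closest gene to each but Plekhg1, and, of the listed genes past the horizontal test or highest in fraction 4, some that were picked after their values were seen. A few listed genes outside that rule (Axin2, Ctnnb1, Slc17a6, Calcr, Calcrl, Ramp1 and Ramp2) were chosen in the same way. The remaining listed genes enter the counts only. The members and lists were chosen with earlier results of these data known. Alternatives were the array median, quantile normalization, normexp with an offset of 50 on the median spot signal (the mean signal was not used here), no filter on dim probes, the deposited log2 values, 1 spline degree of freedom fewer, slide terms and leaving out each fraction.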

Additional observations from a re-analysis of the deposited data

Results flagged for a closer look

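Of 18 sets of fractions examined for a value far from the rest (the 8 genes and their mean, each in the 6 horizontal and in the 10 sagittal fractions), 1 stood out, where chance gives about 0.9. Lef1 in sagittal fraction 9 lay at -1.40, and the next lowest fraction, 10, at -0.52. The gap was 0.514 of the range of the 10 fractions, above the critical value of 0.466. Fraction 9 was also the lowest fraction of Ramp3 and Synpo2, and its 75th percentile of signal was 176. The endothelial and hippocampus lists were lowest there too, at -0.72 and -0.88 log2 from their series means. The myelin list was lowest in fraction 1 and the mean of the members in fraction 2. The part of the array as a whole in the Lef1 value of fraction 9 was not tested. With quantile normalization Lef1 lay at -2.02 there and with normexp at -0.75, below fraction 10 (-0.55 and -0.20) under each.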

How the results depend on the processing

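Each alternative changed 1 choice, except normexp, which also took another signal column of the files. With the array median as the scale, the median of all tested probes in horizontal fraction 4, relative to the mean of the other fractions, moved from -0.02 to 0.44 log2, so counts under it hold a shift of that size. Members highest in horizontal fraction 4 then numbered 7, against 34.2% of tested probes, and 5 with quantile normalization, against 15.7%. Under the array median the lead of fraction 4 turned positive for Lef1 (0.52), Gbx2 (0.53) and Plekhg1 (0.092), and under quantile normalization for Plekhg1 (0.18). Of the other probes, A_55_P2143724 of Tcf7l2 gave -0.69 and A_52_P223127 of Synpo2 gave 0.91. The amount for A_52_P223127 rests on a level under background. Its next highest fraction, horizontal fraction 5, lay at -4.72 and was not well above background. With that level at the floor of its array, -4.07, the lead is smaller. Prkcd, Tcf7l2, Ramp3 and Rgs16 stayed highest in horizontal fraction 4 under all 3 other scalings.

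For the coronal trend, 10910 probes and 2 members were called. The count of probes was 17330 with no filter on dim probes, 4164 (1 member) over the fractions of slide 2, 241 (0 members) with slide as a term, and 7938 to 11145 (1 to 3 members) leaving out each fraction. The members called were 1 with the array median and 1 with a spline degree of freedom fewer. For the horizontal trend (5115 probes, 2 members) the array median gave 19347 (6 members), normexp 9066 (5 members), a degree of freedom fewer 1 (0 members), no filter 1 member, and leaving out each fraction 0 to 5754 (0 members each time). For the sagittal trend (4767 probes, 2 members) the array median gave 337 (1 member), quantile normalization 2631 (1 member), normexp 14295, no filter 19184, the slide term 2520 (1 member), slide 3 alone 0 (0 members), and leaving out each fraction 0 to 15244 (0 to 5 members).

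For medial against lateral fractions (48 probes, 0 members), the count was 136 with the array median, 31 with quantile normalization, 2 with no filter, 21 with slide as a block, 0 with fractions 5 and 6 as medial, 2 on slide 3 alone (chosen after seeing the data), and 0 to 3945 (0 to 3 members) leaving out each fraction. Plekhg1 reversed to -0.26 log2 with normexp. Between the sides, the array median gave 396 probes in place of 0 and turned the differences of Tcf7l2 (-0.20), Prkcd (-0.31) and Ramp3 (-0.22), none of them called, and quantile normalization turned that of Tcf7l2 (-0.0033). The cause of these changes was not tested. No paired analysis was possible because the numbers shared between series are positions along different axes of different mice; the mirror block lies within 1 mouse.

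Limits: each position is 1 array of 1 mouse, so the trend tests measure scatter around a smooth curve, and no result carries over to other mice. Gbx2, Plekhg1 and Synpo2 fell to background in 9, 14 and 2 fractions, where their order has no meaning.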
